A study of Arabidopsis thaliana with 8 samples.

Results

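The response of adult Arabidopsis thaliana shoots to complete submergence was followed over all loci of a whole-genome Affymetrix microarray. Arabidopsis is a rosette-forming weed of the cabbage family and the most used model in plant genetics. The comparison took the 2 arrays whose source label gives adult plants under water and set them against the 2 arrays whose source label gives adult control plants, so it used 4 of the 8 arrays of the series. The other 4 arrays hold the same treatments applied to juvenile plants, which were 2 weeks old.

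Submerged adult plants were 3 weeks old, had grown on soil with a 12 h photoperiod, and spent 24 h in the dark under deionised water (35 l per tank, 25 cm deep). Control adult plants were of the same age and spent the same 24 h in the dark in tanks that held no water. Water stood at room temperature, and both treatments were started at the end of the day. The treatment labels give 24 h of darkness for both groups, which therefore differ by the water. The word dark stands in the sample titles of the submerged group but not in those of the controls. The labels used here name no genotype, and nothing in them says whether the 2 arrays of a group came from separate sets of plants. The p-values therefore measure the spread between arrays, which may be technical.

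Water slows gas diffusion, so a submerged shoot in the dark runs short of oxygen while the gaseous hormone ethylene builds up inside it. In plants, oxygen is sensed through group VII ethylene response factors, whose amino-terminal cysteine is oxidised by plant cysteine oxidases (PCOs) and which are then degraded. When oxygen is low these factors persist and switch on genes of ethanolic fermentation, sucrose breakdown and phytoglobin production. Rosette plants are also known to limit growth and spare carbohydrate under water, and to face pathogens and desiccation once the water recedes.

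The deposited values are on a log2 scale, so a difference of 1 is a 2-fold difference. A locus is written as called when its change, tested with limma's moderated test and adjusted by Benjamini-Hochberg over all 27826 loci, had an adjusted p below 0.05. By that rule 4073 loci were higher in submerged shoots (14.6% of all loci) and 5273 were lower (18.9%). Those shares are the ones to read beside the counts of each gene list below. Changes of at least 2-fold were called upward at 2386 loci (8.57%) and downward at 2267 loci (8.15%). The large changes were mostly upward, with 532 loci called at least 8-fold higher and 108 at least 8-fold lower, and 35 loci at least 64-fold higher against 1 at least 64-fold lower. More loci were called lower than higher, and the median change over all loci was -0.02.

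**Figure D1:**
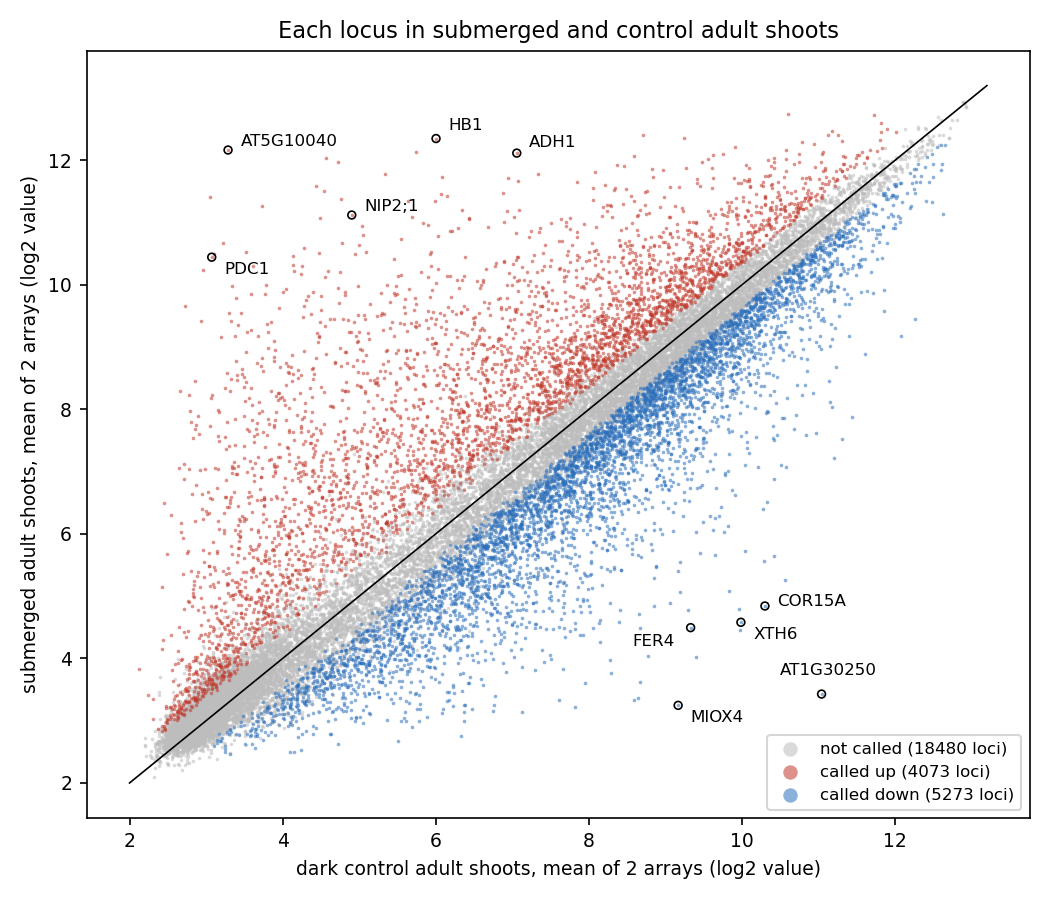
Mean log2 value of each locus on the 2 submerged adult arrays (vertical axis) against its mean on the 2 dark control adult arrays (horizontal axis), with loci called up in red, called down in blue and not called in grey. The diagonal line marks equal values; AT5G10040, PDC1, HB1, ADH1 and NIP2;1 lie far above it, and AT1G30250, MIOX4, FER4, XTH6 and COR15A far below it.

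Arrays of one group were far more alike than arrays of different groups. Over all loci the 2 submerged arrays correlated at 0.991 and the 2 control arrays at 0.994, against 0.928 to 0.931 between a submerged and a control array; these correlations are across loci of 2 arrays each and describe the libraries only. A difference of 2-fold or more separated the 2 submerged arrays at 508 loci and the 2 control arrays at 272 loci. Among markers of tissue, the leaf marker RBCS1A (AT1G67090), a Rubisco small subunit gene, stood at 12.58 and 12.70 on the submerged arrays and at 12.82 and 12.79 on the control arrays. Of 10 root markers, 9 lay between 2.45 and 5.27 on all 4 arrays, while BGLU23 (AT3G09260), a root-enriched beta-glucosidase, was called lower at 7.42 and 7.90 in submerged shoots against 9.78 and 9.97 in controls. Of 7 seed and flower markers, PI, a floral MADS-box factor, was called higher, at 8.83 and 8.97 in submerged shoots against 5.75 and 5.76 in controls, and the other 6 were not called. Of 8 leaf and epidermis markers, 4 were called lower, among them the stomatal lineage receptor gene TMM (5.21 and 5.15 submerged, 6.64 and 6.67 control), the carbonic anhydrase gene CA1 (-1.27) and the guard cell factor gene FAMA (8.17 and 8.17 submerged, 8.78 and 9.08 control). The part of these marker changes in the results below was not tested, and in whole shoots fewer cells of a type and less RNA per cell cannot be told apart.

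The largest rise of all belonged to AT5G10040, which the gene table does not name. It stood at 12.14 and 12.19 on the submerged arrays, against 3.40 and 3.17 on the control arrays, a change of 8.88 ± 0.14 (SE, n = 2 arrays a group, adjusted p = 1.4e-06). LCR67, the plant defensin gene PDF1.1, had 11.27 and 11.56 in submerged shoots and 3.15 and 2.94 in controls. FTM1, also known as SAD6 and encoding a stearoyl-acyl carrier protein desaturase, had 12.08 and 12.01 in submerged shoots and 4.38 and 4.75 in controls. All 3 stood above 11 on the submerged arrays and below 5 on the control arrays, with no overlap. The other 12 of the 15 largest rises lay between 6.64 and 7.54, and 8 of them have no gene name in the table used; the named ones were PDC1 (AT4G33070) and ARD3, described below, the peroxidase gene Prx37 and the receptor-like kinase gene CRK31. Prx37 rested on control arrays that differed widely (3.72 and 5.72) beside 11.98 on each submerged array. The unnamed loci and their changes were AT3G29970 (7.54), AT2G14247 (7.44), AT4G24110 (7.38), AT2G17850 (7.28), AT3G48450 (7.01), AT2G28755 (6.96), AT4G10265 (6.94) and AT1G12805 (6.64).

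Among the falls, AT1G30250 stood alone. It had 3.59 and 3.27 on the submerged arrays, against 11.12 and 10.96 on the control arrays, a change of -7.61 ± 0.21 (SE, adjusted p = 3.95e-06). The next of the 15 largest falls was MIOX4, encoding a myo-inositol oxygenase, with 2.82 and 3.67 in submerged shoots and 9.08 and 9.25 in controls. The rest lay between -5.52 and -4.73 and included 3 genes of cold and dehydration responses (COR15A, RAB18 and COR15B), the wall enzyme gene XTH6 (AT5G65730), the auxin-response repressor gene IAA29, the cytosolic aldolase gene FBA5, the ferritin gene FER4, which encodes an iron store, and AT1G76800, listed as a vacuolar iron transporter-like gene (VTL2). The others were ZW9 (-5.52), the MADS-box factor gene PHE1 (-5.26), AT5G57785 (-5.05), AT4G29905 (-4.77) and AT4G06536 (-4.75).

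Genes of ethanolic fermentation and of the entry of sucrose into it were among the strongest risers. Of 15 members 10 were called higher, 1 lower and 4 not, with a median change of 1.82, so 66.7% were called higher beside 14.6% of all loci. Without submerged replicate 1 or without control replicate 1 the number called lower was 2. PDC1, encoding pyruvate decarboxylase, which commits pyruvate to ethanol, had 10.47 and 10.42 in submerged shoots against 3.25 and 2.90 in controls, a 166-fold difference (7.37 ± 0.14, SE, adjusted p = 2.07e-06). ADH1 (AT1G77120), alcohol dehydrogenase, which makes the ethanol, had 12.17 and 12.07 in submerged shoots against 7.07 and 7.05 in controls (5.06 ± 0.11, adjusted p = 2.31e-06). The arrays of the groups were separated by several log2 units for both enzymes. Sucrose synthases cleave sucrose at a lower energy cost than invertase, and 3 of their genes moved in different ways. SUS4 (AT3G43190) had 9.90 and 10.10 in submerged shoots against 3.52 and 4.04 in controls, and SUS1 (AT5G20830) had 10.79 and 10.86 against 7.04 and 7.06. SUS3 was called lower, with 5.83 and 5.50 in submerged shoots and 7.16 and 7.34 in controls. Amino acid routes that run beside fermentation rose as well: the alanine aminotransferase gene ALAAT1 (AT1G17290) changed by 1.82 ± 0.11, and the glutamate decarboxylase gene GAD4 by 4.44 ± 0.24. The glutamate dehydrogenase genes GDH1 (-0.04) and GDH2 (-0.45) were not called.

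Genes of nitrate use and phytoglobins gave 6 of 11 members called higher and 1 lower, with a median change of 1.43; the one called lower, the glutamine synthetase gene GLN2 (-0.49), lost its call without submerged replicate 1 (-0.29, adjusted p = 0.162), without control replicate 1 (-0.47, adjusted p = 0.142) and without control replicate 2 (-0.51, adjusted p = 0.125). HB1 (AT2G16060), the class 1 phytoglobin that scavenges nitric oxide when oxygen is short, had 12.36 and 12.34 in submerged shoots against 6.23 and 5.78 in controls (6.35 ± 0.18, SE, adjusted p = 3.95e-06). Both nitrate reductase genes were called higher. NIA1 (AT1G77760) had 10.12 and 9.99 in submerged shoots against 6.93 and 6.16 in controls, and NIA2 had 9.08 and 9.26 against 6.70 and 6.69. The nitrate transporter gene NRT1.1 changed by 2.80 ± 0.16. The plasma membrane channel gene NIP2;1 (AT2G34390), which is known to pass lactic acid, had 11.12 on both submerged arrays, against 4.65 and 5.15 on the control arrays (6.22 ± 0.30, adjusted p = 2.26e-05).

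**Figure D2:**
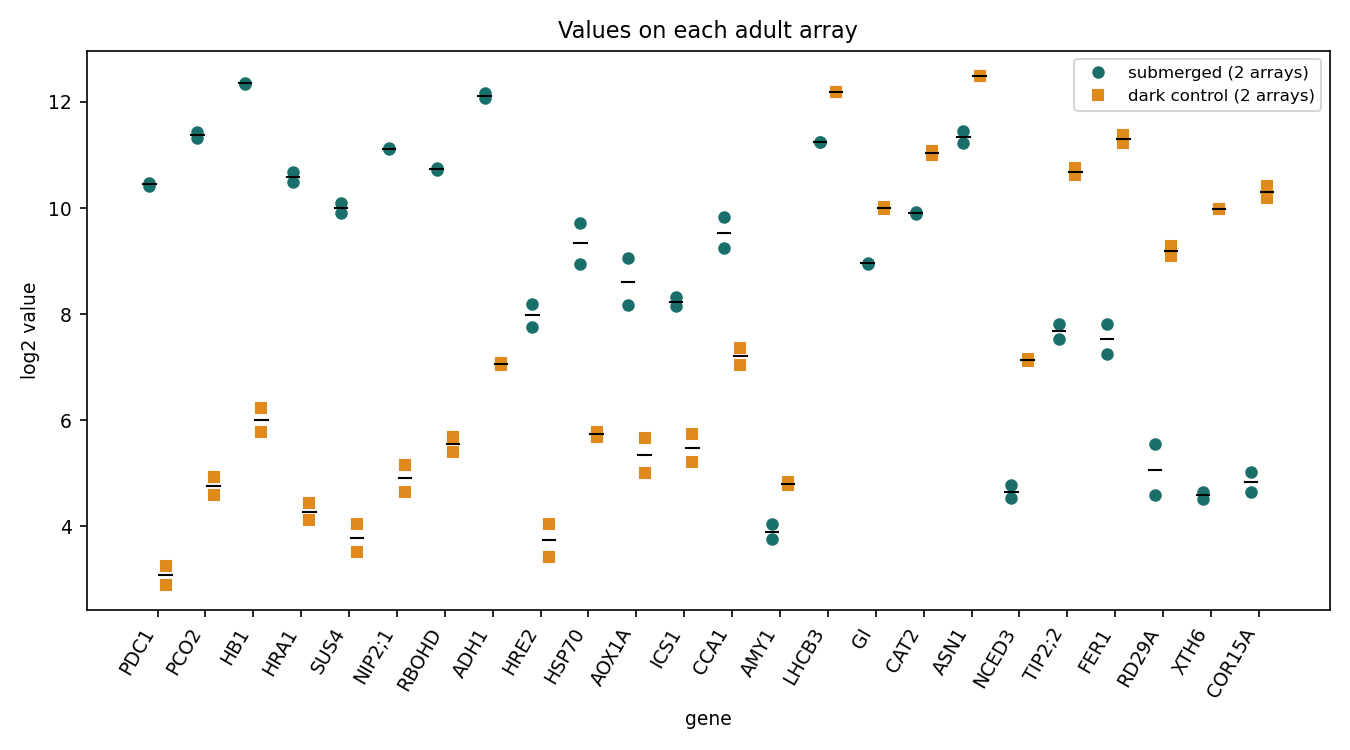
Log2 values of 24 genes on each adult array, with submerged arrays as circles left of the dark control arrays as squares, and a short line at each mean of 2 arrays. The 24 genes were picked by hand from the gene lists and run from their largest rise (PDC1) to their largest fall (COR15A). The 2 groups do not overlap for any of them, which describes this choice of genes and tests nothing. Over all loci both submerged arrays lay above both control arrays at 30.6% and below both at 35.6%.

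In the oxygen-sensing list 9 of 17 members were called higher and 1 lower. The one called lower, ACBP1 (-0.62), which binds RAP2.12 at the plasma membrane, lost its call without control replicate 2 (-0.51, adjusted p = 0.0529). The oxidases that mark group VII factors for degradation split sharply. PCO1 (AT5G15120) had 10.75 and 10.54 in submerged shoots against 4.91 and 5.07 in controls, and PCO2 (AT5G39890) had 11.32 and 11.43 against 4.93 and 4.59 (6.61 ± 0.16, SE, adjusted p = 2.58e-06). PCO4 (AT2G42670) stood at 9.14 and 9.20 in submerged shoots and 8.60 and 8.46 in controls; its call (0.64, adjusted p = 0.0111) was lost without submerged replicate 2 (0.62, adjusted p = 0.0515) and without control replicate 2 (0.58, adjusted p = 0.0702). PCO3 (-0.29) and PCO5 (0.05) were not called. Of the factors themselves, some are described here, and RAP2.2 and RAP2.3 are not. The 9 list members called higher include genes not named here. RAP2.12 (AT1G53910), a constitutive member, had 11.17 and 10.97 in submerged shoots against 11.58 and 11.39 in controls and was not called (-0.42 ± 0.14, adjusted p = 0.0551), whereas the low-oxygen-inducible members HRE1 (AT1G72360) and HRE2 (AT2G47520) changed by 1.96 ± 0.19 and 4.24 ± 0.27. HRA1 (AT3G10040), a trihelix factor that restrains RAP2.12, had 10.67 and 10.50 in submerged shoots against 4.12 and 4.44 in controls. LBD41 (AT3G02550), a LOB-domain factor gene, had 11.66 on both submerged arrays against 7.20 and 6.94. The arginine transferase and ubiquitin ligase genes that finish the degradation route, ATE1 (-0.09), ATE2 (-0.19) and PRT6 (0.20), were not called.

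Cytosolic glycolysis had 10 of 18 members called higher and 3 lower (55.6% and 16.7%, beside 14.6% and 18.9% of all loci), with a median of 0.51. The largest rises were at phosphofructokinase, which commits hexose to the pathway: PFK6 (AT4G32840) had 9.46 and 9.60 in submerged shoots against 7.17 and 7.29 in controls (a 4.92-fold difference, adjusted p = 2.71e-05), and PFK3 (AT4G26270) changed by 1.89 ± 0.19. Hexokinase gene HXK2 changed by 1.57 ± 0.13. Steps further down the pathway moved less. GAPC2, a cytosolic glyceraldehyde-3-phosphate dehydrogenase, changed by 0.72 ± 0.12, triose phosphate isomerase gene TPI by 0.00 ± 0.12 and the enolase gene LOS2 (AT2G36530) by 0.17 ± 0.16, the last 2 not called. One aldolase ran the other way: FBA5 had 4.69 and 4.91 in submerged shoots against 9.87 and 10.04 in controls (-5.16 ± 0.14, adjusted p = 3.95e-06), while aldolase gene FBA6 changed by 1.07 ± 0.16. The count of 3 members called lower dropped to 1 without submerged replicate 2 and to 1 without control replicate 2. The hexokinase gene HXK1 (-0.69) lost its call without submerged replicate 2 (-0.64, adjusted p = 0.0642) or control replicate 2 (-0.61, adjusted p = 0.0802). The enolase gene ENOC (-0.67) lost its call without submerged replicate 2 (-0.41, adjusted p = 0.124), control replicate 1 (-0.80, adjusted p = 0.0559) or control replicate 2 (-0.54, adjusted p = 0.162). Among the members called higher, the second cytosolic dehydrogenase gene GAPC1 (0.91) lost its call without submerged replicate 1 (0.87, adjusted p = 0.0667), submerged replicate 2 (0.95, adjusted p = 0.0511) or control replicate 2 (0.78, adjusted p = 0.0876).

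The tricarboxylic acid cycle, which needs respiration to run in full, gave a mixed picture with 6 of 17 members called higher, 4 lower and a median of 0.14. IDH2, a subunit of NAD-dependent isocitrate dehydrogenase, had 9.74 and 9.76 in submerged shoots against 8.32 and 8.43 in controls. SDH2-2, an iron-sulfur subunit of succinate dehydrogenase, had 8.50 and 8.10 against 9.74 and 9.95. The 4 members called lower dropped to 1 without submerged replicate 1, to 2 without control replicate 1 and to 2 without control replicate 2. The pyruvate dehydrogenase subunit gene IAR4 was also called higher (0.69). The malate dehydrogenase gene mMDH2 (-0.72) lost its call without submerged replicate 1 (-0.49, adjusted p = 0.127) or control replicate 1 (-0.52, adjusted p = 0.144). The citrate synthase gene CSY4 (-0.64) lost its call without submerged replicate 1 (-0.52, adjusted p = 0.103) or control replicate 2 (-0.48, adjusted p = 0.12).

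Alternative respiration bypasses the proton-pumping complexes of the mitochondrial chain, and its genes are switched on when that chain is impaired. Of 17 members 9 were called higher and 1 lower. AOX1A (AT3G22370), the main stress-induced alternative oxidase, had 8.17 and 9.06 in submerged shoots against 5.66 and 5.0 in controls (3.28 ± 0.44, SE, adjusted p = 0.00137). AOX1D (AT1G32350) had 6.57 and 7.26 in submerged shoots against 4.39 and 5.29. UGT74E2, a glucosyltransferase gene used as a marker of mitochondrial stress, had 7.74 and 8.86 against 3.38 and 3.24, and OM66 (AT3G50930), an outer membrane ATPase, changed by 3.09 ± 0.26. The 2 submerged arrays lay apart for AOX1A and UGT74E2, with replicate 2 higher. ANAC017 (AT1G34190), the membrane-bound factor that relays mitochondrial signals, stood at 9.72 and 9.59 in submerged shoots and 9.17 and 9.32 in controls. Its call (0.41, adjusted p = 0.0402) was lost whichever adult array was left out, with values of 0.33 to 0.49 and adjusted p of 0.0667 to 0.187. The external NADH dehydrogenase gene NDB2 (AT4G05020), with 5.20 and 5.58 in submerged shoots against 5.88 and 6.12 in controls, was the member called lower; without submerged replicate 1 its change was -0.42 (adjusted p = 0.21), without control replicate 1 -0.72 (adjusted p = 0.0783) and without control replicate 2 -0.49 (adjusted p = 0.209).

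Among genes of reactive oxygen, 5 of 17 were called higher and 6 lower (29.4% and 35.3%, beside 14.6% and 18.9% of all loci). RBOHD (AT5G47910), the plasma membrane NADPH oxidase that produces superoxide in stress signalling, had 10.72 and 10.76 in submerged shoots against 5.40 and 5.69 in controls (5.19 ± 0.24, SE, adjusted p = 1.96e-05). The zinc finger factor genes ZAT12 (AT5G59820) and ZAT10 (AT1G27730), which respond to oxidative stress, changed by 4.17 ± 0.25 and 3.01 ± 0.22. Catalase removes hydrogen peroxide in peroxisomes, and CAT2 (AT4G35090) was called lower at 9.92 and 9.89 in submerged shoots against 11.07 and 10.99 in controls. CSD1, a cytosolic superoxide dismutase, was called higher (1.23 ± 0.12). Ascorbate peroxidase gene APX1 (0.12) was not called. The other members called lower included 3 ferritin genes, of which FER1 had 7.25 and 7.80 in submerged shoots against 11.23 and 11.37 in controls, and FER3 changed by -1.88.

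Ethylene genes had 10 of 20 members called higher and 1 lower (50% and 5%, beside 14.6% and 18.9% of all loci). The ACC oxidase gene ACO1 (AT2G19590), for the oxygen-requiring last step of ethylene synthesis, had 10.59 and 10.48 in submerged shoots against 5.94 and 5.93 in controls (4.60 ± 0.15, SE, adjusted p = 5.41e-06). The ACC synthase genes ACS7 and ACS2, for the step before it, changed by 2.11 and 1.01, and ACS6 was called higher as well. ARD3 belongs to the methionine salvage cycle that recycles the sulfur left over from ethylene synthesis, and it had 11.57 and 11.62 in submerged shoots against 4.17 and 4.70 in controls, a 143-fold difference. The receptor gene ETR2 (AT3G23150), itself an ethylene target, changed by 2.71 ± 0.16, and CTR1, the kinase that holds the pathway off, by 1.23 ± 0.13. The central activators EIN2 (-0.57) and EIN3 (-0.01) were not called. The ACC oxidase gene ACO5 (AT1G77330) was the member called lower (-1.30 ± 0.22).

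Abscisic acid, the drought hormone, showed falls in 11 of 20 members and rises in 3, with a median of -0.55. NCED3 (AT3G14440) makes the rate-limiting cleavage enzyme of its synthesis and had 4.78 and 4.52 in submerged shoots against 7.15 and 7.11 in controls (-2.48 ± 0.14, SE, adjusted p = 3.65e-05). CYP707A1 and CYP707A3 (AT5G45340), 8'-hydroxylase genes that break the hormone down, were called higher with changes of 1.83 ± 0.28 and 1.89 ± 0.19, whereas their relative CYP707A2 was called lower (-0.84). Protein phosphatases 2C of this pathway are both its brakes and its transcriptional targets, and 7 of 9 were called lower. PP2CA had 5.87 and 5.59 in submerged shoots against 9.97 and 10.11 in controls, and ABI2 had 4.51 and 4.47 against 7.65 and 7.69. HAI1, another of these phosphatases, changed by -2.67 ± 0.18. On the synthesis side, the rise of ABA2 (0.52) lost its call without submerged replicate 2 (0.41, adjusted p = 0.143), control replicate 1 (0.48, adjusted p = 0.134) or control replicate 2 (0.55, adjusted p = 0.0985).

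The cold and dehydration list showed the highest share of falls, with 14 of 18 members called lower, 0 called higher and a median of -1.97. COR15A (AT2G42540), which protects chloroplast membranes during freezing, had 4.65 and 5.03 in submerged shoots against 10.41 and 10.19 in controls, a 44.0-fold difference (-5.46 ± 0.28, SE, adjusted p = 2.77e-05). RAB18 (AT5G66400), a dehydrin induced by abscisic acid, had 4.55 and 3.49 in submerged shoots against 9.37 and 9.44. RD29A (AT5G52310), a widely used reporter of dehydration, had 5.55 and 4.58 against 9.10 and 9.28. Both arrays of each group lay on opposite sides of a gap of more than 3 log2 units for these 3 genes. P5CS1, which makes the osmolyte proline, changed by -3.87 ± 0.20. Of the upstream CBF factor genes, CBF1 was called lower (-1.05 ± 0.18), and CBF2 (0.33) and CBF3 (0.14) were not called. COR15A, RAB18 and RD29A all stood above 9 in dark plants in air.

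Light-reaction genes encode the antenna, photosystems and electron carriers of the thylakoid. Of 38 members 28 were called lower and 0 higher, with a median of -0.70, a shallower fall than in the cold list but spread over all complexes: 10 of 15 antenna genes, 5 of 6 photosystem II genes, 7 of 9 photosystem I genes and 6 of 8 genes of electron carriers and ATP synthase. LHCB3, of the light-harvesting complex, had 11.24 and 11.25 in submerged shoots against 12.20 and 12.18 in controls (-0.95 ± 0.12, SE, adjusted p = 0.000997). The largest falls were LHCB1.4 (-2.81 ± 0.30), LHCB2.3 (-2.55 ± 0.12) and PSBO2 (-2.03 ± 0.19), an oxygen-evolving complex protein. LHCB1 and LHCB2 genes are near-identical copies, so probes could share their signal, and the split between them is uncertain. LHCB1.1, for one, was not called, with 3.49 and 3.90 in submerged shoots against 3.53 and 2.95 in controls. The photoprotection gene PSBS (AT1G44575) was not called, at 7.93 and 8.27 in submerged shoots against 7.65 and 7.72 in controls (0.42 ± 0.14, adjusted p = 0.0642), but was called higher without submerged replicate 1 (0.59, adjusted p = 0.0279).

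Carbon fixation and photorespiration moved less, with 6 of 27 members called lower, 3 called higher and a median of -0.16, shares of 22.2% and 11.1% that lie near those of all loci. RBCS1A (-0.16 ± 0.11) and Rubisco activase gene RCA (-0.26 ± 0.13) were not called. The largest fall was HPR1 (AT1G68010), the peroxisomal hydroxypyruvate reductase, with 10.88 and 10.95 in submerged shoots against 11.92 and 12.07 in controls, and phosphoribulokinase gene PRK changed by -0.83 ± 0.15. The 3 members called higher dropped to 0 without submerged replicate 2, to 0 without control replicate 1 and to 1 without control replicate 2. The Rubisco small subunit gene RBCS1B (1.83) lost its call without submerged replicate 2 (1.25, adjusted p = 0.155), control replicate 1 (2.07, adjusted p = 0.0743) or control replicate 2 (1.60, adjusted p = 0.149). The Calvin cycle regulator gene CP12-2 (0.63) lost its call without submerged replicate 2 (0.57, adjusted p = 0.0553) or control replicate 1 (0.51, adjusted p = 0.0678). The photorespiratory glycine decarboxylase gene GLDP1 (0.52) lost its call without submerged replicate 1 (0.39, adjusted p = 0.2), submerged replicate 2 (0.65, adjusted p = 0.0526), control replicate 1 (0.51, adjusted p = 0.151) or control replicate 2 (0.53, adjusted p = 0.143). The plastid dehydrogenase gene GAPA-2 was called lower (-0.98). Of the chlorophyll genes 11 of 25 were called lower, 2 higher, with a median of -0.31; without control replicate 2 the 11 dropped to 5, and the 2 dropped to 1 without submerged replicate 2, control replicate 1 or control replicate 2. Of the chlorophyll list 44% were called lower and 8% higher, beside 18.9% and 14.6% of all loci. PORB (AT4G27440), the light-requiring protochlorophyllide reductase, had 10.16 and 10.19 in submerged shoots against 11.37 and 11.21 in controls. Genes of chlorophyll breakdown were mixed. RCCR (AT4G37000), which opens the way to colourless catabolites, changed by -1.30 ± 0.11, and SGR1 (AT4G22920), which pulls magnesium from chlorophyll during senescence, had 7.68 and 7.21 in submerged shoots against 8.39 and 8.28 in controls. NYC1, for the first step of chlorophyll b breakdown, was called lower (-0.86), a call lost without submerged replicate 2 (-0.78, adjusted p = 0.0732), control replicate 1 (-0.86, adjusted p = 0.065) or control replicate 2 (-0.86, adjusted p = 0.068). The pheophytinase gene PPH (-0.31) and the oxygenase gene PAO (-0.15) were not called. The chlorophyllase gene CLH1 was called higher, with 6.95 and 7.86 in submerged shoots against 6.30 and 6.55 in controls (0.98), a call lost without submerged replicate 2 (0.53, adjusted p = 0.169), control replicate 1 (adjusted p = 0.179) or control replicate 2 (adjusted p = 0.101). On the synthesis side, the magnesium chelatase subunit gene CHLI2 changed by -1.31 ± 0.17 and the glutamate-1-semialdehyde aminotransferase gene GSA1 by 0.75 ± 0.12.

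Starch genes had 17 of 27 members called lower and 1 higher (63% and 3.7%, beside 18.9% and 14.6% of all loci). Their median was -0.69, and members of both breakdown and synthesis were among the falls. On the breakdown side, the maltose exporter gene MEX1 (AT5G17520) had 7.85 and 8.53 in submerged shoots against 9.99 and 9.69 in controls, the debranching enzyme gene ISA3 had 8.15 and 8.16 against 9.71 and 9.75, and the starch phosphorylase gene PHS1 (AT3G29320) had 9.15 on both submerged arrays against 10.45 and 10.52. The alpha-amylase gene AMY1 (AT4G25000) had 4.03 and 3.76 against 4.83 and 4.78. The beta-amylase gene BAM3 (AT4G17090) was not called, and its submerged arrays lay apart, at 8.50 and 9.53 against 10.30 and 10.25 in controls (-1.26 ± 0.48, SE, adjusted p = 0.0869). On the synthesis side, the branching enzyme gene SBE2.1 changed by -1.46 ± 0.17. GBSS1, the granule-bound synthase of amylose and a gene under clock control, was the member called higher, at 10.44 and 10.83 against 8.30 and 8.51 (2.23 ± 0.17, adjusted p = 0.000122).

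Genes known to be induced by darkness and sugar starvation were already exposed to 24 h of darkness in both groups. Of 22 members 9 were called lower in submerged shoots and 0 higher, with a median of -0.39. ASN1 (AT3G47340), the dark-induced asparagine synthetase, had 11.22 and 11.45 in submerged shoots against 12.49 and 12.48 in controls (-1.15 ± 0.14, SE, adjusted p = 0.000763). LKR (AT4G33150), for the first step of lysine breakdown, changed by -1.06 ± 0.13, and the trehalose-phosphate synthase family gene TPS11 by -1.15 ± 0.16. The senescence marker SEN1 (-0.24) and the beta-glucosidase gene DIN2 (-0.27) were not called. Autophagy recycles cell contents in starving cells, and 11 of its 14 genes were not called. Its shares called higher and lower were 7.14% and 14.3%, beside 14.6% and 18.9% of all loci. ATG5 (AT5G17290) was called higher (0.64 ± 0.12), and 2 ATG8 genes were called lower, a count that dropped to 0 without control replicate 2 and to 1 without submerged replicate 2 or control replicate 1. The fall of ATG8G (-0.71) lost its call without control replicate 2 (-0.61, adjusted p = 0.0509). That of ATG8B (-0.47) lost its call without submerged replicate 2 (-0.38, adjusted p = 0.127), control replicate 1 (-0.56, adjusted p = 0.0509) or control replicate 2 (-0.38, adjusted p = 0.154). The receptor gene NBR1 (AT4G24690) stood at 11.32 and 11.28 in submerged shoots and 11.21 on both control arrays.

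Of the clock genes named here, the called morning genes were higher and the called evening genes lower. Other called members are not named, so a split of the whole list by time of day is not shown. Of the 23 members 10 were not called. The plant clock couples morning factors, which repress evening genes at dawn, to evening factors, which repress the morning genes. The morning genes LHY (AT1G01060) and CCA1 (AT2G46830) were called higher in submerged shoots: LHY had 7.82 and 8.45 in submerged shoots against 5.22 and 5.01 in controls (3.02 ± 0.31, SE, adjusted p = 0.000395), and CCA1 had 9.24 and 9.82 against 7.05 and 7.36. RVE8, a related factor, changed by 2.38 ± 0.27. Some evening genes were lower. GI (AT1G22770) had 8.97 and 8.94 in submerged shoots against 10.03 and 9.97 in controls. ELF4 had 6.44 and 6.08 against 7.99 on both control arrays. The flowering-time photoreceptor gene FKF1 had 6.82 and 6.30 against 8.02 and 8.25. TOC1 (AT5G61380), which closes the loop on CCA1, changed by -0.54 (adjusted p = 0.00826), and by -0.50 with its call lost without control replicate 2 (adjusted p = 0.054). The day-phased genes PRR9 (-0.24), PRR7 (-0.14) and PRR5 (0.06) were not called. In all 5 of 23 members were called higher and 8 lower (21.7% and 34.8%, beside 14.6% and 18.9% of all loci). The 5 dropped to 3 without control replicate 1. The evening factor gene BOA (-1.73) lost its call without submerged replicate 1 (-1.18, adjusted p = 0.0543), control replicate 1 (-1.83, adjusted p = 0.051) or control replicate 2 (-1.64, adjusted p = 0.0725).

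In the growth-related lists more members were called lower than higher, as over all loci (18.9% and 14.6%). Of the XTH and expansin list 48.6% were called lower and 13.5% higher. XTH enzymes cut and rejoin wall xyloglucan and expansins loosen walls. Of 26 XTH genes 10 were called lower and 3 higher, and of 11 EXPA genes 8 were called lower and 2 higher. XTH6 had 4.64 and 4.52 in submerged shoots against 9.98 and 9.99 in controls (-5.41 ± 0.13, SE, adjusted p = 2.95e-06), and EXPA16 had 5.92 and 5.23 against 10.22 and 10.36. XTH15 changed by -3.56 ± 0.33, EXPA8 by -1.33 ± 0.18 and EXPA11 by -1.22 ± 0.17. Of the 5 members called higher, 3 changed by more than 3 log2 units. XTH23 (AT4G25810) had 10.77 and 11.06 in submerged shoots against 7.23 and 7.50, EXPA10 had 8.65 and 9.22 against 5.47 and 5.76, and XTH18 changed by 3.25 ± 0.26. Of the other 2, XTH24 (0.56) lost its call without submerged replicate 1 (0.50, adjusted p = 0.0816) or control replicate 2 (0.49, adjusted p = 0.101). The expansin gene EXPA2 (0.78) lost its call without submerged replicate 2 (0.66, adjusted p = 0.0614), control replicate 1 (0.78, adjusted p = 0.054) or control replicate 2 (0.78, adjusted p = 0.0555). Neither family therefore moved as one block.

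Gibberellin promotes elongation, and its list also holds light-growth factors. In that list 11 of 20 members were called lower and 2 higher (55% and 10%, beside 18.9% and 14.6% of all loci). The synthesis gene GA20OX2 changed by -1.65 ± 0.27, the breakdown gene GA2OX1 by -1.51 ± 0.24, and the DELLA repressor genes GAI and RGL3 by -1.26 ± 0.18 and -1.82 ± 0.29, while the receptor gene GID1B was called higher at 9.50 and 9.54 in submerged shoots against 8.37 and 7.96 in controls. Of the phytochrome-interacting factors PIF4 (AT2G43010) was called lower (-0.85 ± 0.13) and PIF3 higher (1.17 ± 0.18). Auxin-response families were also called lower more often than higher. Of 32 IAA genes 20 were called lower and 3 higher (62.5% and 9.38%). Of 80 SAUR genes 31 were called lower and 12 higher (38.8% and 15%), the last near the 14.6% of all loci. IAA29 had 5.62 and 4.91 in submerged shoots against 10.52 and 10.61 in controls. Type-A response regulators, which are induced by cytokinin, had 5 of 10 called lower and 1 higher. ARR15 had 3.72 and 3.93 in submerged shoots against 7.70 and 7.64 (-3.85 ± 0.27, adjusted p = 7.68e-05), and ARR6 had 4.35 and 4.61 against 7.73 and 7.92. ARR4 changed by -2.04 ± 0.12, ARR5 was not called (-0.38), and ARR17 was called higher with 5.36 and 7.12 in submerged shoots against 3.57 and 3.28 in controls. Without submerged replicate 2 the list had 2 members called higher in place of 1. The median of the cytokinin list, -0.29, was -0.45 without submerged replicate 1 and -0.14 without submerged replicate 2.

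Cell division genes were called lower in 12 of 26 members and higher in 1, with a median of -0.55. Those shares, 46.2% and 3.85%, stand beside 18.9% and 14.6% of all loci. The member called higher, CYCD2;1 (0.42), lost its call without submerged replicate 1 (0.45, adjusted p = 0.066), submerged replicate 2 (0.39, adjusted p = 0.0944), control replicate 1 (0.46, adjusted p = 0.0742) or control replicate 2 (0.38, adjusted p = 0.123). The D-type cyclin gene CYCD1;1 had 5.31 and 5.37 in submerged shoots against 7.95 and 8.08 in controls, and CYCD3;1 (AT4G34160), which couples cytokinin to division, had 6.77 and 6.75 against 7.96 and 7.84. The syntaxin gene KNOLLE (AT1G08560), which builds the dividing wall, changed by -1.46 ± 0.23 (SE). Of 6 CYCB genes 4 were called lower, but mitotic genes were dim on all arrays, CYCB1;2 (AT5G06150) for example at 3.02 and 2.76 in submerged shoots against 3.97 and 4.42. CYCB1;1 (AT4G37490) changed by -0.54 (adjusted p = 0.0324) and lost its call without submerged replicate 2 (-0.41, adjusted p = 0.147) and without control replicate 2 (-0.40, adjusted p = 0.173). Of 6 MCM replication genes 1 was called lower. MCM3 was not called (-0.26). Among 15 cytosolic ribosomal protein genes 4 were called lower and 1 higher; the 4 dropped to 2 without control replicate 2, the 1 dropped to 0 whichever adult array was left out, and RPL10B had the largest fall, with 7.55 and 7.63 in submerged shoots against 8.69 and 8.89 in controls. Of these ribosomal genes 26.7% were called lower and 6.67% higher, beside 18.9% and 14.6% of all loci. RPS6A changed by -0.93 ± 0.13, and RPL3A (-0.37) was not called. The fall of RPL23AB (-0.64) lost its call without submerged replicate 2 (-0.57, adjusted p = 0.0539) or control replicate 2 (-0.51, adjusted p = 0.067). The one rise, of RPL10C (0.44), lost its call without submerged replicate 1 (0.44, adjusted p = 0.117), submerged replicate 2 (0.45, adjusted p = 0.109), control replicate 1 (0.46, adjusted p = 0.116) or control replicate 2 (0.42, adjusted p = 0.147).

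Water channel genes were called lower in 13 of 18 members (72.2%, beside 18.9% of all loci), with a median of -0.89. All but 3 of 13 plasma membrane PIP genes and all but 1 of 4 vacuolar TIP genes were called lower, and the lactic acid channel gene NIP2;1 was the one member called higher. TIP2;2 had 7.82 and 7.54 in submerged shoots against 10.75 and 10.62 in controls (-3.00 ± 0.13, SE, adjusted p = 1.64e-05), and PIP1;2 (AT2G45960) had 7.22 and 7.40 against 8.98 and 8.96. PIP1;1 changed by -1.29 ± 0.12. Cuticular wax genes divided evenly, 4 called lower and 4 higher of 16; without submerged replicate 1, without control replicate 1 or without control replicate 2 the 4 called higher dropped to 2. Of the wax genes 25% were called lower and 25% higher, beside 18.9% and 14.6% of all loci. CER1 (AT1G02205), for alkane synthesis, had 4.27 and 4.69 in submerged shoots against 7.48 and 7.41, and its partner CER3 had 8.15 and 7.89 against 9.36 and 9.50. LACS1, a long-chain acyl-CoA synthetase, was called higher (1.04 ± 0.15). Its relative LACS2 (0.96) lost its call without submerged replicate 1 (0.70, adjusted p = 0.0681) or control replicate 1 (0.74, adjusted p = 0.0811). The wax regulator gene MYB96 (0.93) lost its call without control replicate 2 (0.83, adjusted p = 0.068). The alcohol-forming reductase gene CER4 was called lower (-1.48), and the midchain hydroxylase gene MAH1 (-0.15) was not called. The median of the wax list, -0.15, was -0.32 without submerged replicate 1 and 0.02 without submerged replicate 2.

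**Figure D3:**
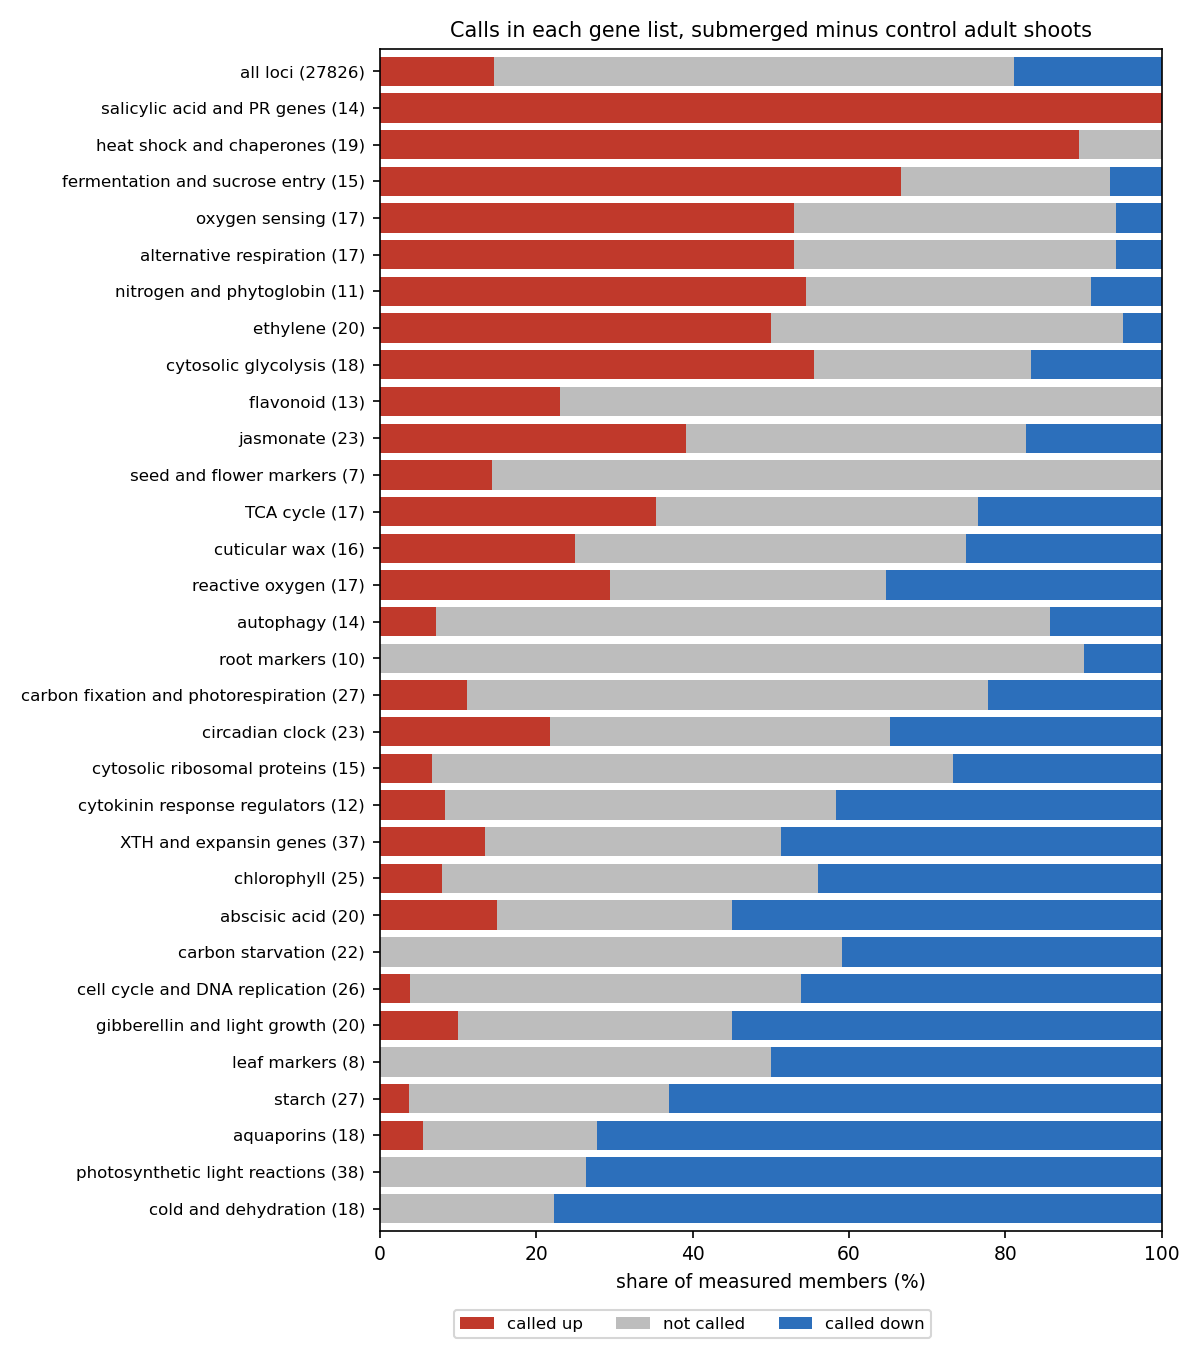
Share of the measured members of each gene list called up (red), not called (grey) and called down (blue) in submerged against control adult shoots, with the number of members in parentheses and all loci in the top row. All 14 salicylic acid and PR genes were called up and 14 of 18 cold and dehydration genes were called down, beside 14.6% up and 18.9% down over all loci.

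Heat shock proteins and other chaperones keep proteins folded, and most of their genes rose in submerged shoots. Of 19 members 17 were called higher (89.5%, beside 14.6% of all loci) and 0 lower, with a median of 2.23. Both submerged arrays lay above both control arrays for all 19, as they did at 30.6% of all loci. The 7 small heat shock protein genes changed by 1.14 to 6.26. HSP17.6II had 8.89 and 10.22 in submerged shoots against 3.43 and 3.16 in controls (6.26 ± 0.45, SE, adjusted p = 8.8e-05), and HSP23.6-MITO, whose product is mitochondrial, had 7.58 and 9.30 against 3.60 and 3.43. HSP70 had 8.95 and 9.72 in submerged shoots against 5.69 and 5.78. HSFA2 (AT2G26150), a heat shock factor that also responds to low oxygen, had 5.13 and 5.37 against 3.06 and 2.62. The list holds only 6 HSF factor genes, of which 5 were called higher and 0 lower. Of the 21 HSF genes counted by symbol, 7 were called higher and 4 lower, so the list does not stand for the HSF family. The small heat shock protein gene HSP18.2 changed by 4.96 ± 0.67 and the disaggregase gene HSP101 by 1.83 ± 0.32. The 2 submerged arrays were less alike here than elsewhere. Replicate 2 read higher than replicate 1 for 14 of the 19 genes, by at least 1 log2 unit for 5 of them, and the list's mean was 8.07 on replicate 2 and 7.50 on replicate 1 of the submerged arrays, against 5.16 and 5.13 on the control arrays.

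**Figure D4:**
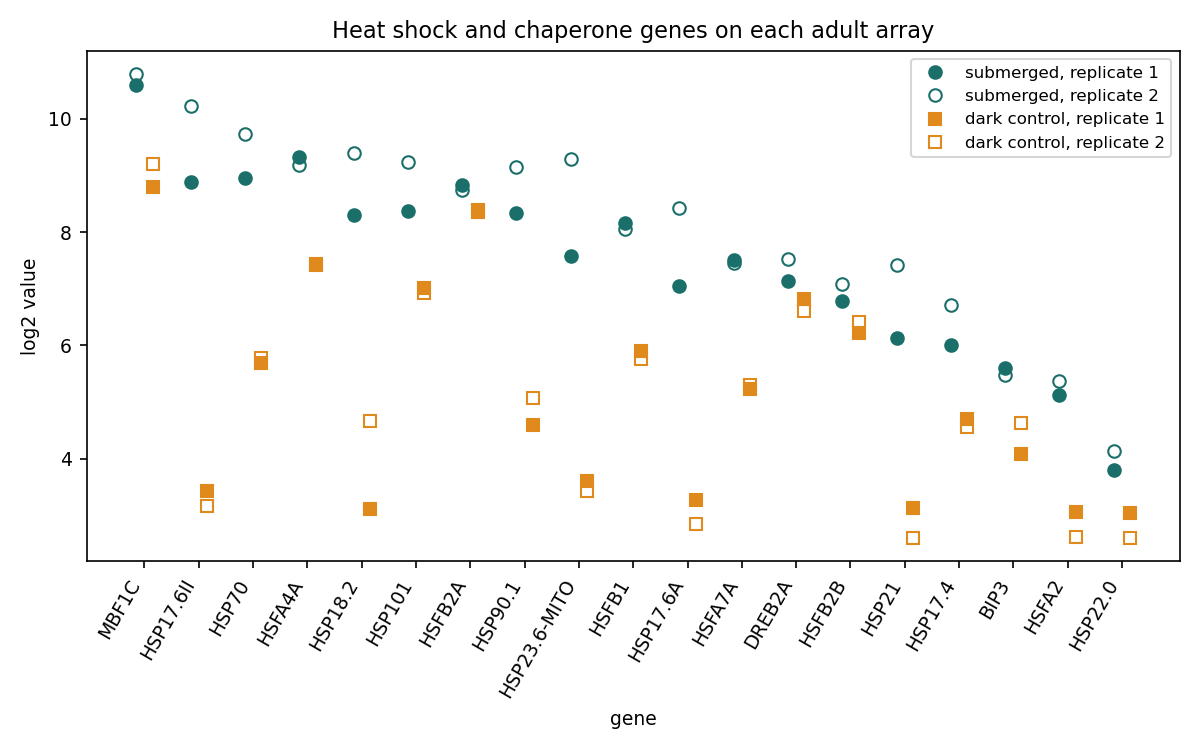
Log2 values of the 19 heat shock and chaperone genes on each adult array, submerged arrays as circles left of dark control arrays as squares, with filled symbols for replicate 1 and open symbols for replicate 2. Both submerged arrays lie above both control arrays for all 19 genes (beside 30.6% of all loci), and submerged replicate 2 lies above replicate 1 for 14 of the 19.

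Salicylic acid drives defence against biotrophic pathogens, and all 14 members of its list were called higher (100%, beside 14.6% of all loci), with a median of 2.36. The synthesis gene ICS1 (AT1G74710) had 8.32 and 8.15 in submerged shoots against 5.21 and 5.73 in controls (2.77 ± 0.28, SE, adjusted p = 0.000346). EDS5, which exports the precursor from the plastid, had 9.66 and 9.80 against 5.59 and 5.21. The paired regulators SARD1 and CBP60G activate ICS1. SARD1 had 9.07 and 9.20 in submerged shoots against 5.03 and 5.24, and CBP60G changed by 2.46 ± 0.18. The output marker PR1 (AT2G14610), a secreted pathogenesis-related protein, had 8.64 and 8.33 in submerged shoots against 5.91 and 6.54. The immune signalling gene PAD4 changed by 2.55 ± 0.31. NIMIN1, an interactor of the salicylic acid receptor NPR1, changed by 3.90 ± 0.27.

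Jasmonate, the wound hormone, showed a mixed response of 9 of 23 members called higher and 4 lower. Of 10 synthesis genes 6 were called higher and 1 lower: LOX4 had 9.12 and 9.78 in submerged shoots against 4.74 and 4.85 in controls, and AOC1 had 8.89 and 9.03 against 4.89 and 5.83. AOC3 was called higher (1.76) and its relative AOC4 lower (-1.21). LOX2 was not called (0.68, adjusted p = 0.0511), except without submerged replicate 1 (0.93, adjusted p = 0.0302). Of 10 JAZ repressor genes, which are jasmonate targets, 3 were called higher and 2 lower. The falls were JAZ7 (-1.67) and JAZ12 (-0.70). The output gene VSP1 (AT5G24780) was dim and not called, at 2.78 and 2.90 in submerged shoots against 2.96 and 4.07 in controls; without control replicate 1 it was called lower (-1.22, adjusted p = 0.0128). The median of the list, 0.20, was -0.04 without control replicate 1 and 0.42 without control replicate 2. Flavonoid genes had 3 of 13 members called higher and 0 lower (1 lower without control replicate 1, and 5 higher without either submerged juvenile array), led by the anthocyanin regulator gene PAP2 (AT1G66390) at 6.33 and 5.36 in submerged shoots against 4.11 and 3.78. Of the flavonoid genes 23.1% were called higher and 0% lower, beside 14.6% and 18.9% of all loci. The chalcone isomerase gene CHI changed by 1.26 ± 0.14, and chalcone synthase gene CHS, for the first step, was not called (0.95, adjusted p = 0.0593). The rise of F3H (1.56) lost its call without submerged replicate 2 (0.95, adjusted p = 0.131), control replicate 1 (1.67, adjusted p = 0.0898) or control replicate 2 (1.45, adjusted p = 0.132). Their median of 0.59 was 0.26 without submerged replicate 2 and 0.29 without control replicate 2.

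Gene families were counted by their symbols, beside 14.6% called higher and 18.9% called lower over all loci. Of 72 WRKY factor genes, many of which act in immunity, 38 were called higher and 5 lower (52.8% and 6.94%). Rises exceeded falls among 100 NAC genes (26 and 5, which are also the percentages), 31 numbered ERF genes (14 and 3), 14 CML calmodulin-like genes (11 and 1), 42 glutathione transferase genes of the GSTU and GSTF classes (19 and 3), and 64 UGT glycosyltransferase genes (24 and 7). Among 239 cytochrome P450 genes 19.7% were called higher and 10% lower, among 125 MYB genes 16.8% and 12.8%, shares less than 10 points from those of all loci, and among 22 BHLH genes 5 were called higher and 4 lower. The counts lay closer together among 23 PUB ubiquitin ligase genes (9 and 4), 21 HSF genes (7 and 4), 14 ATL genes (5 and 6), 17 SWEET sugar transporter genes (3 and 5) and 9 LEA genes (2 and 3), and 0 of 9 DREB genes were called higher and 2 lower. Among their largest rises, WRKY55 had 10.67 and 10.37 in submerged shoots against 5.01 and 3.94 in controls, NAC061 had 8.82 and 10.02 against 3.40 and 3.24, and CML38, a calcium sensor known from low-oxygen responses, had 9.96 and 9.81 against 4.08 and 4.70. These 3 genes were chosen after their values were seen. Organelle genomes moved little, with 3 of 92 mitochondrial loci called higher and 2 lower, and 0 of 14 plastid loci called higher and 2 lower.

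Whether the adult response differed from that of juvenile shoots was tested as the difference between the 2 changes in the same fit. No locus passed (0 of 27826, 0%), the smallest adjusted p being 0.143; 2030 loci had an unadjusted p below 0.05. In juvenile shoots the same rule called 15.5% of loci higher and 18.8% lower. Of the loci called in adult shoots 7577 were called at both ages, 7564 of them in the same direction, and of the 1769 called in adult shoots and not in juvenile shoots 90.8% had a change of the same sign in juvenile shoots. The adult and juvenile changes share no arrays, though they share 1 estimate of variance.

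**Figure D5:**
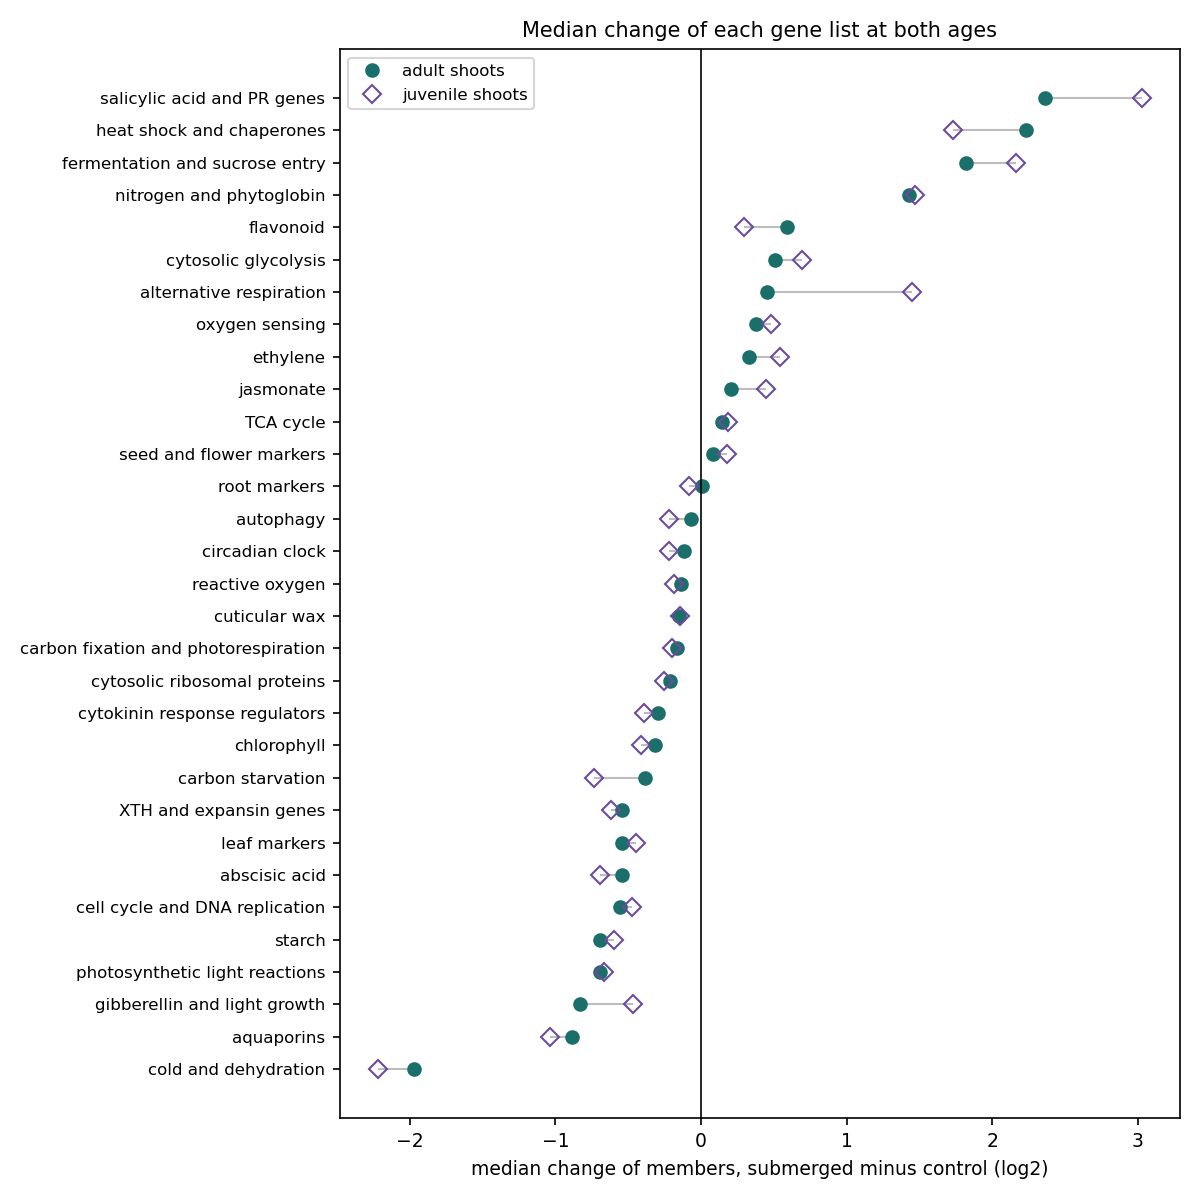
Median change (log2, submerged minus dark control) of each gene list in adult shoots (filled circles) and juvenile shoots (open diamonds), joined by a grey line. Both medians lie on the same side of 0 for each list except the root markers, and the widest gap is in alternative respiration, with 0.45 in adult and 1.45 in juvenile shoots.

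The estimated sizes of some changes were unlike at the 2 ages, but none passed the test over all loci. No difference between the ages was thus shown for these genes. AOX1D had 6.57 and 7.26 in submerged adult shoots against 4.39 and 5.29 in adult controls, and 10.71 and 9.88 in submerged juvenile shoots against 3.86 and 3.72 in juvenile controls; the adult change was smaller by 4.43 on the log2 scale (-4.43 ± 0.55, SE, adjusted p = 0.19). NDA1, an internal alternative NADH dehydrogenase, changed by 0.45 in adult and 1.59 in juvenile shoots (difference adjusted p = 0.276), and its adult call was lost without submerged replicate 2 (0.36, adjusted p = 0.123), control replicate 1 (0.40, adjusted p = 0.13) or control replicate 2 (0.50, adjusted p = 0.076). Dark-induced ASN1 changed by -1.15 in adult and -2.24 in juvenile shoots (difference adjusted p = 0.278), and PR1 by 2.26 and 4.16 (difference adjusted p = 0.302). In the other direction, CER1 changed by -2.97 in adult and -1.44 in juvenile shoots, and ARR15 by -3.85 and -1.42 (difference adjusted p = 0.276 for each). HSP21, a plastid small heat shock protein, changed by 3.92 in adult and 1.73 in juvenile shoots (difference adjusted p = 0.452).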

How the data were processed

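Gene expression was measured on 8 Affymetrix arrays, 2 for each of 4 groups, with 1 biotin-labelled total RNA sample per array. The deposited table holds log2 values, 1 for each of 27826 loci and array, judged from their range (1.86 to 13.05); the submitters' processing notes name RMA and limma without version or role. The array model, probe assignment, genome build and annotation are not given in the sources used here. Detection and background per probe were not analysed here, so no locus could be called absent, and precision is limited by the number of arrays and their spread.

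All changes were computed with limma 3.58.1 in R 4.3.3: lmFit with 1 mean for each of the 4 groups over 8 arrays, then eBayes, two-sided, with Benjamini-Hochberg adjustment over all loci. Each group mean rests on 2 arrays, with 4 residual degrees of freedom and 2.99 from the prior. An exact permutation test of 2 against 2 arrays cannot go below p = 0.333, so none was used. The fit was tested on simulated data, and the outcome is not given here. Plots used Python 3.11.15 and its library matplotlib 3.10.9.

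Loci were named from a RefSeq gene table of the TAIR10.1 assembly, used for names only. The gene lists and families were written from general knowledge of the field, with earlier results of these data known, as was the comparison itself. Of 604 list entries 19 were dropped because code and symbol did not match, 1 was not measured, and 584 were used. The text names the 15 largest rises and falls among called loci with non-overlapping arrays, in each list up to 3 called members of largest rise and fall, and members marked as key in the lists, except 1 gene that is not reported here. A further 44 genes were named for their role after their values were seen. Ribosomal genes were counted by list only, since their symbol stems also match resistance genes. Promoter motifs were not analysed here.

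Replicate numbers of the 2 adult groups did not pair the arrays (correlation of same-numbered deviations 0.05 in adult shoots), so no block was fitted in the results above. Alternatives tried were a fit of the 4 adult arrays, quantile normalization, median centring, an intensity trend with a robust prior, removal of the dimmest 50% of loci, a stricter threshold, a replicate block and leaving out each array.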

Additional observations from a re-analysis of the deposited data

Results flagged for a closer look

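For 3 named genes the 2 submerged arrays lay on one side of the 2 control arrays in adult shoots and on the other side in juvenile shoots. In adult shoots both submerged arrays lay above both control arrays at 30.6% of all loci and below both at 35.6%. The difference between the ages was tested in the same limma fit, and none of the 3 passed after adjustment over all loci.

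NDB2, an external NADH dehydrogenase of mitochondria, had 5.20 and 5.58 in submerged adult shoots against 5.88 and 6.12 in adult controls, and 6.40 and 6.16 in submerged juvenile shoots against 5.65 and 5.32 in juvenile controls. Its adult change minus its juvenile change was -1.40 ± 0.27 (SE, adjusted p = 0.305). VSP1, a jasmonate output gene, changed by -0.67 in adult and 0.45 in juvenile shoots, a difference of -1.12 ± 0.48 (adjusted p = 0.693). GA2OX8, for gibberellin breakdown, changed by 0.20 in adult and -0.27 in juvenile shoots, a difference of 0.47 ± 0.20 (adjusted p = 0.682). VSP1 and GA2OX8 were called at neither age, though VSP1 was called lower in adult shoots without adult control replicate 1 (-1.22, adjusted p = 0.0128).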

How the results depend on the processing

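The count of 9346 called loci stayed between 8264 and 10270 under the adult arrays alone, quantile normalization, median centring, an intensity trend with a robust prior and a replicate block (8839 with the replicate block). It was 5927 at an adjusted p under 0.01, with 3125 called lower, and leaving out 1 array gave 6587 to 9580. Without the dimmest 50% of loci 1546 of 13913 loci were called at least 2-fold higher and 1406 at least 2-fold lower. For none of these alternatives was a called locus called in the opposite direction. The difference between the ages called 28 loci with an intensity trend and a robust prior, and 0 to 23 when 1 array was left out (23 without juvenile submerged replicate 2). Of the 274 genes named or listed by name, 223 were called, and 31 of these lost the call without at least 1 adult array. Changes of sign occurred in genes that were not called. Quantile normalization gave -0.0496 for BAM5 and -0.0353 for TPI, and centring on array medians gave 0.0245 for EIN3. Leaving out 1 array gave -0.0829 to 0.82 for LHCB4.3, -0.65 to 0.12 for DIN2, -0.0132 to 0.0912 for BAM5, -0.21 to 0.51 for PAP1, -0.32 to 0.0798 for ATG8H, -0.12 to 0.0394 for GDH1, -0.0168 to 0.12 for PCO5 (AT3G58670), -0.10 to 0.11 for TPI, -0.0850 to 0.0646 for EIN3, -0.0929 to 0.76 for CBF2, -0.0357 to 0.32 for CBF3 (DREB1A), -0.0118 to 0.13 for PRR5, -0.59 to 0.40 for BHLH101 and -0.52 to 0.44 for FER2. The cause was not tested. Signal over background was not analysed here, and of the 6957 dimmest loci 207 were called higher and 86 lower.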

Other observations

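The falls of FER4 and AT1G76800, both concerned with iron storage, led to a look at 20 genes of iron handling, a list written after those values were seen, so its counts describe and test nothing. Of the 20, 5 were called higher and 4 lower, shares of 25% and 20% beside 14.6% and 18.9% of all loci. BHLH100, a factor gene induced by iron shortage, had 8.41 and 8.94 in submerged adult shoots against 4.09 and 3.84 in controls (4.71, adjusted p = 4.72e-05), and its relative BHLH38 changed by 1.30 (adjusted p = 0.00225), whereas BHLH39 (1.12, adjusted p = 0.0576) was not called except without submerged replicate 1 (1.71, adjusted p = 0.00637) and BHLH101 (-0.10) was not called. The iron transport genes OPT3 and YSL3 and the iron sensor gene BTS changed by 0.94, 0.91 and 0.79, all called. The ferritin genes FER4, FER1 and FER3 changed by -4.84, -3.78 and -1.88, and the nicotianamine synthase gene NAS3 by -2.56. The reductase gene FRO2 (0.49) and the synthase gene NAS1 (0.39) were not called, except without control replicate 1 (0.82, adjusted p = 0.0108, and 0.67, adjusted p = 0.0203). FRO3, the regulator genes PYE and FRU, NAS2, NAS4, YSL2 and FER2 were not called.

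The large rises of 2 cytochrome P450 genes led in the same way to a list of 14 genes that make tryptophan and turn it into indolic defence compounds. Of these 13 were called higher, each by at least 2-fold, and MYB34 was called lower (-0.51, adjusted p = 0.0112), a call lost without control replicate 1 (-0.47, adjusted p = 0.0674). The share called higher was 92.9%, beside 14.6% of all loci, of which 8.57% were called higher by at least 2-fold. This list too was written after values were seen, so its counts describe and test nothing. CYP79B2 and CYP79B3, which convert tryptophan to indole-3-acetaldoxime, rose together. CYP79B2 had 10.69 and 10.64 in submerged shoots against 4.21 and 5.35 in controls, and CYP79B3 had 11.28 and 11.40 against 5.43 and 5.85. The tryptophan synthesis genes ASA1, TSA1, TSB1 and TSB2 changed by 3.31, 3.13, 2.75 and 3.11. PAD3, for the last step of camalexin synthesis, had 9.52 and 9.56 against 5.06 and 5.53. Of their regulator genes, MYB51 changed by 3.80, MYB122 by 3.94 and WRKY33 by 2.39. The median change of the list was 3.52 in adult and 4.17 in juvenile shoots.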
